A study of Mus musculus with 16 samples.

Results

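RNA levels were compared between 2 sorted populations of regulatory T cells (Treg) after a suppression assay: activated CD103 single-positive cells (CD103-positive, ICOS-negative) and activated double-negative cells (negative for both). The members are the 4 arrays carrying these labels, 2 per group, of 16 arrays in all. The Treg came from female C57BL/6 mice aged 8 to 12 weeks, whose para-aortic, mesenteric, inguinal, brachial, axillary and cervical lymph nodes were pooled, and they were sorted by CD103 and ICOS before culture. Over 3 days, 200000 Treg of 1 subset shared a well with 1000000 naive CD4 cells of the Ly5.1 congenic strain, 2000000 irradiated Rag2-/- splenocytes and soluble anti-CD3 antibody at 0.5 ug/ml, after which cells that were Ly5.1neg CD4pos CD25pos were sorted again. The second sort did not use CD103 or ICOS, so a group is named for what its cells carried before culture. Fresh CD103 single-positive and fresh double-negative cells, from which RNA was taken straight after the first sort, had 2 arrays each and are set beside the activated cells. Each array received 270 ng of total RNA, and the replicates are labelled as biological ones from 2 independent experiments.

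CD103, the integrin alpha E chain encoded by Itgae, pairs with integrin beta 7 to bind E-cadherin on epithelial cells, and TGF-beta is known to induce it on T cells. Among Treg it marks antigen-experienced cells with access to tissues, while CD103-negative, ICOS-negative cells include many with a central, lymphoid-homing phenotype. In a suppression assay Treg restrain naive T cells that respond to antibody against CD3, and the Treg are activated themselves through their T cell receptor.

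Of 19938 genes tested, 11 passed (0.0552%) at an adjusted p below 0.05: 5 were higher in activated CD103 single-positive cells (0.0251%) and 6 were lower (0.0301%). The higher genes were Itgae itself, Klrg1, Gpld1, Map3k20 and Ctnnd1, and the lower ones St8sia1, Evl, Cd40lg, Ipcef1, Nqo2 and Pitpnc1. Windows of 250 bases that end at the annotated transcription start are shown for 3 of these genes. RefSeq lists exactly 1 start for each of them, and they differed between the groups in both directions. St8sia1 had the smallest adjusted p of all genes and was lower in CD103 single-positive cells. Pitpnc1 was lower by a smaller difference, and Gpld1 was higher. Of the 11 genes 8 have at least 1 such window in the RefSeq table of GRCm38.p6. The windows are written 5′ to 3′ on the gene's strand, and capitals mark matches to CAGAC on either strand, a motif bound by SMAD proteins, the transcription factors of TGF-beta signalling.
St8sia1, chr6:142964453-142964702, minus strand: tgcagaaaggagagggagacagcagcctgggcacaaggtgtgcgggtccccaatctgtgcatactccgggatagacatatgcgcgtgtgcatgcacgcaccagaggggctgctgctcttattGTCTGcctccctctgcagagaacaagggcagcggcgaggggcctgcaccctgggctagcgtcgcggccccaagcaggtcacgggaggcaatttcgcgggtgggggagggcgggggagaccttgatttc
Pitpnc1, chr11:107470721-107470970, minus strand: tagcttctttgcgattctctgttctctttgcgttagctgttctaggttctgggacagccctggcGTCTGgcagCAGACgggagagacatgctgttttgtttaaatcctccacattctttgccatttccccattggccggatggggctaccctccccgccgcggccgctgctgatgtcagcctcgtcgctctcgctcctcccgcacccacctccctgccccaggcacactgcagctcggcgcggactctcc
Gpld1, chr13:24942902-24943151, plus strand: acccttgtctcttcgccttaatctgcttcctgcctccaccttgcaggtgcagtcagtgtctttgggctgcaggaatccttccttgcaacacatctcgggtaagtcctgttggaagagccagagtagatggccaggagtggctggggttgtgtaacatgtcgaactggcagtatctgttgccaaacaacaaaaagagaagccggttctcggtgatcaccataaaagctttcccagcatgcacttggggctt

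CAGAC was found 1 time in the St8sia1 window, 2 times in the Pitpnc1 window and 0 times in the Gpld1 window, and 42.2% of 32851 RefSeq windows of the same length hold it. None of the 3 windows held TGANTCA, the letters bound by AP-1 (6.75% of all windows), GGAAAA, bound by NFAT (20.4%), or TGTGGT, bound by RUNX factors (14%), on either strand. No 2 of these motifs overlapped in the windows shown. A match describes the letters of a window and is not evidence of binding.

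Levels are deposited log2 intensities, so a difference of 1 is a 2-fold difference, and each gene is represented by its brightest probe set with a single gene symbol. The array medians over all genes were 6.73 and 6.57 for CD103 single-positive replicates 1 and 2, and 6.63 and 6.56 for double-negative replicates 1 and 2. Intensities include background, so folds of genes near these medians can be understated. Differences were tested with limma on 15 arrays that share 1 estimate of spread per gene. Replicate 2 of activated CD103-negative, ICOS-positive cells was left out, because Foxp3 stood at 8.53 on it, against 12.64 on its partner. The p-values rest on the spread between biological replicates in the groups with 2 arrays, since the group left with 1 array adds none. In bulk RNA fewer cells of a type cannot be told apart from less RNA per cell.

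The sorted cells carried Treg RNA in both groups. Foxp3, the lineage transcription factor of Treg, stood at 12.19 and 11.97 on the arrays of CD103 single-positive cells, against 12.30 and 11.69 on those of double-negative cells. Il2ra, which encodes CD25, stood at 13.11 and 13.08 in CD103 single-positive cells, against 12.91 and 13.13 in double-negative cells, so the groups overlapped for both genes. Icos was high in both ICOS-negative groups after culture, at 12.12 and 12.07 in CD103 single-positive and 11.63 and 11.86 in double-negative cells. Its difference was 0.35 on the log2 scale and did not pass (limma adjusted p = 0.9999). Among the 8 defining Treg markers, which include the CD3 chains, 0 passed and the median log2 difference was -0.05.

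Markers of cells that could remain in the sorted fraction were low for most lists but differed between arrays. Of measured markers, 8 of 10 for B cells, 16 of 19 for myeloid and dendritic cells and 6 of 7 for erythroid cells and platelets stayed below a log2 level of 7 on all 4 arrays. Their lists held 0 genes that passed, with median log2 differences of 0.02 (B cells), 0.04 (myeloid and dendritic cells) and 0.07 (erythroid cells and platelets). The linear intensities of the B cell markers summed to 1456 and 1195 on the arrays of CD103 single-positive cells, against 954 and 1166 on those of double-negative cells. Those of the myeloid markers summed to 4562 and 4036 in CD103 single-positive cells, against 3770 and 3948 in double-negative cells. Those of the erythroid and platelet markers summed to 559 and 457 in CD103 single-positive cells, against 516 and 392 in double-negative cells.

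The summed intensity of CD8 T and NK cell markers was highest on 1 array, but single members went both ways. Of 10 measured, 6 stayed below 7 on all 4 arrays, Cd8a, Ncr1 and Klrb1c among them, and 0 passed (median log2 difference -0.17). Groups did not overlap for 2 of the 10 higher in CD103 single-positive cells, Cd8a and Gzmk, and for 2 lower, Klrd1 and Klrk1. Over all genes tested these shares were 16.5% (above) and 9.72% (below). Gzmk differed by 0.10 and stayed below 7 on all 4 arrays. Cd8a had a log2 difference of 0.49 (limma adjusted p = 0.487). In fresh cells Cd8a was also higher in CD103 single-positive cells and passed (log2 difference 1.71, limma adjusted p = 5.36e-04). Their summed intensity was 1120 and 2315 on the arrays of CD103 single-positive cells, against 1918 and 5602 on those of double-negative cells, with the highest sum on double-negative replicate 2. Klrd1, which encodes the NK receptor chain CD94, showed the same array, with 4.56 and 4.90 in CD103 single-positive cells against 5.19 and 8.33 in double-negative cells (adjusted p = 0.9999). With double-negative replicate 1 left out, replicate 2 stood for the group. The log2 difference was then -3.60 for Klrd1 and -1.87 for Klrk1, the NKG2D receptor gene. The part of such cells in the results was not tested.

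The double-negative replicates differed from each other more than the CD103 single-positive replicates did. Between the 2 CD103 single-positive arrays 202 genes differed more than 2-fold, against 413 between the 2 double-negative arrays, of which 233 were lower and 180 higher on double-negative replicate 1. The CD103 difference exceeded 2-fold for 291 genes within replicate 1 and for 91 genes within replicate 2. In both replicates together 8 genes were more than 2-fold higher and 18 more than 2-fold lower in CD103 single-positive cells. Of the 93 genes with more than 2-fold between the group means, 46 were higher and 47 lower, and 10 passed the test.

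**Figure D1:**
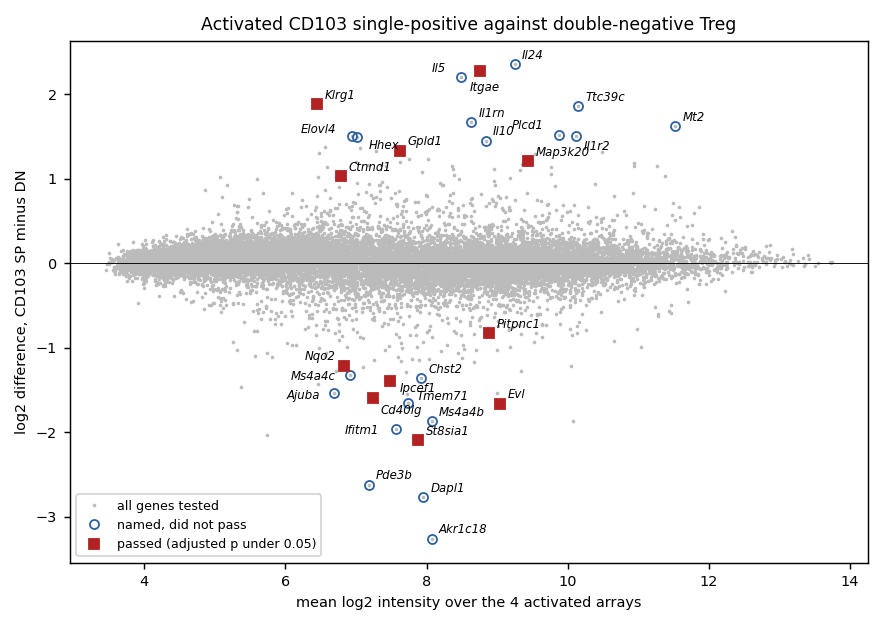
Log2 difference, activated CD103 single-positive minus activated double-negative (vertical axis), against the mean log2 intensity over the 4 activated arrays (horizontal axis), with 1 point per gene for 19938 genes. Filled squares are the 11 genes that passed and open circles are the named genes that did not. Most points lie near 0, and several of the larger differences, such as Akr1c18 at -3.26, belong to genes that did not pass.

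The number of calls depended on the arrays in the fit. Leaving out 1 array leaves its group with 1, and the disagreement of that pair drops out of the error. A gene whose pair disagreed can then pass for that reason, so passing with 1 array left out is no support for a gene. In the limma fit of 15 arrays 709 genes had an unadjusted p below 0.05. A limma fit of the 4 arrays alone gave 0 calls, with 472 genes at an unadjusted p below 0.05, and a fit of the 7 activated arrays also gave 0, with 519 such genes. With all 16 arrays only Cd40lg passed. Leaving out CD103 single-positive replicate 1 left 2 calls, St8sia1 and Il18r1, an IL-18 receptor chain. There were 26 calls without CD103 single-positive replicate 2, 19 without double-negative replicate 1 and 96 without double-negative replicate 2. Among the 11 genes, 8 passed without CD103 single-positive replicate 2, 5 without double-negative replicate 1 and all 11 without double-negative replicate 2. The share of calls that were higher was 45.5%, against 28.6% of 7 calls after a second quantile normalization and 57.1% of 7 calls with each array centred on its median. Without double-negative replicate 1 it was 15.8% of the 19 calls.

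Itgae, the gene of the sorted marker, stayed higher in CD103 single-positive than in double-negative cells. It stood at 9.94 and 9.87 on the arrays of CD103 single-positive cells, against 7.31 and 7.95 on those of double-negative cells. Both arrays of CD103 single-positive cells lay above both of the other group, and the level was 4.84-fold higher (probe set 10378286, chromosome 11, log2 difference 2.28, SE 0.23, limma adjusted p = 0.0114). Because the cells were chosen by this protein, the difference checks the labels of these groups, but only in part. Activated CD103-negative, ICOS-positive replicate 1 had Itgae at 10.001, above both CD103 single-positive arrays. Its partner, left out of the fit, stood at 6.30. A high Itgae level after culture therefore did not mark the CD103 sort on every array. In fresh cells Itgae was at 11.77 and 11.89 in CD103 single-positive cells, against 7.81 and 7.25 in double-negative cells, a log2 difference of 4.30. The change of the difference with activation was -2.03 on the log2 scale and did not pass (adjusted p = 0.12).

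Klrg1 encodes an inhibitory lectin-like receptor found on late effector T cells and NK cells, which, like CD103, binds E-cadherin. Its level was 7.34 and 7.44 on the arrays of CD103 single-positive cells, against 5.67 and 5.35 on those of double-negative cells. The groups did not overlap, and Klrg1 was 3.68-fold higher in CD103 single-positive cells (probe set 10547590, chromosome 6, log2 difference 1.88, SE 0.18, limma adjusted p = 0.00791). The fresh cells gave 7.45 and 7.33 in CD103 single-positive and 5.80 and 5.30 in double-negative cells. The difference changed by 0.04 on the log2 scale with activation (95% interval -0.52 to 0.60, adjusted p = 0.9999).

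Ctnnd1 encodes p120-catenin, which binds the cytoplasmic tail of cadherins. It stood at 7.42 and 7.20 in CD103 single-positive cells, against 6.27 and 6.28 in double-negative cells, with no overlap. The log2 difference was 1.03 (probe set 10484402, chromosome 2, SE 0.13, limma adjusted p = 0.0312). In fresh cells it also passed, at 6.31 and 6.46 in CD103 single-positive and 5.41 and 5.22 in double-negative cells (log2 difference 1.07, adjusted p = 0.00813).

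Gpld1, which encodes a phospholipase that releases proteins from their glycosylphosphatidylinositol anchor, was at 8.15 and 8.42 in CD103 single-positive cells, against 6.85 and 7.06 in double-negative cells. The groups did not overlap, and the log2 difference was 1.33 (probe set 10404218, chromosome 13, SE 0.19, limma adjusted p = 0.0484). Its fresh difference was 0.87 and did not pass (adjusted p = 0.128). Map3k20 encodes a kinase that acts upstream of JNK and p38 and responds to ribosomal stress. It was at 10.099 and 10.001 in CD103 single-positive cells, against 8.62 and 9.06 in double-negative cells, again with no overlap (probe set 10472893, chromosome 2, log2 difference 1.21, SE 0.15, limma adjusted p = 0.0312). In fresh cells Map3k20 was low in both groups, at 5.21 and 5.22 in CD103 single-positive and 5.12 and 5.40 in double-negative cells. The change of its difference was 1.26 and did not pass (adjusted p = 0.14).

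St8sia1 was lower in activated CD103 single-positive than in activated double-negative cells and had the smallest adjusted p of the comparison. It encodes GD3 synthase, the sialyltransferase that makes the ganglioside GD3 from GM3. The level was 6.70 and 6.97 on the arrays of CD103 single-positive cells, against 8.79 and 9.07 on those of double-negative cells. The groups lay far apart relative to their spread, with a 4.28-fold lower level in CD103 single-positive cells (probe set 10549162, chromosome 6, log2 difference -2.10, SE 0.14, limma adjusted p = 4.82e-04). Fresh cells showed no such gap, with 9.97 and 9.96 in CD103 single-positive and 9.97 and 9.81 in double-negative cells. The change of the difference with activation was -2.17 on the log2 scale (SE 0.19, adjusted p = 0.00989), and it was tested as an interaction.

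Evl encodes an Ena/VASP protein that acts on actin filaments. It stood at 8.24 and 8.19 in CD103 single-positive cells, against 10.13 and 9.62 in double-negative cells, with no overlap, and was 3.17-fold lower (probe set 10398267, chromosome 12, log2 difference -1.66, SE 0.18, limma adjusted p = 0.0147). Fresh Evl was 11.55 and 11.36 in CD103 single-positive and 11.61 and 11.59 in double-negative cells, a log2 difference of -0.15 (adjusted p = 0.9999). The change of its difference was -1.52 and did not pass (adjusted p = 0.14).

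Cd40lg encodes CD40 ligand, the helper T cell surface protein that stimulates B cells and dendritic cells through CD40. Its level was 6.36 and 6.54 on the arrays of CD103 single-positive cells, against 8.10 and 7.99 on those of double-negative cells. It was 3.01-fold lower with no overlap (probe set 10599802, X chromosome, log2 difference -1.59, SE 0.18, limma adjusted p = 0.0147). The fresh difference ran the same way but did not pass (log2 difference -0.49, adjusted p = 0.696). Cd40lg is 1 of 10 listed markers of activated conventional CD4 T cells, and it was the member that passed. Of these markers 8 had a negative difference and 4 had groups that did not overlap, with double-negative cells higher, as did 9.72% of all genes tested, and the median log2 difference was -0.39. Their summed intensity was 3246 and 3677 on the arrays of CD103 single-positive cells, against 3657 and 5659 on those of double-negative cells. The 4 members without overlap were Cd40lg, Il2, Il3 and Csf2. Of the cytokines in the list, Il2, Il3, Csf2 and Il4 stayed below 7 on all 4 arrays, while Ifng, Il21 and Tnf did not. The levels of Ifng are given with the helper lineage list. The part of such cells in the Cd40lg difference was not tested.

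Smaller differences, also lower in CD103 single-positive cells, passed for Ipcef1, Nqo2 and Pitpnc1. Ipcef1, which encodes a partner of the cytohesin exchange factors for Arf GTPases, was at 6.52 and 7.07 in CD103 single-positive cells, against 8.36 and 8.01 in double-negative cells (probe set 10361338, chromosome 10, log2 difference -1.40, limma adjusted p = 0.0363). In fresh cells it ran the other way without passing (log2 difference 0.45, adjusted p = 0.941), and the change of -1.84 missed the threshold (adjusted p = 0.0731). Nqo2 encodes a quinone reductase. It was at 6.02 and 6.44 in CD103 single-positive cells, against 7.49 and 7.40 in double-negative cells (probe set 10404496, chromosome 13, log2 difference -1.22, limma adjusted p = 0.0312). Pitpnc1, a phosphatidylinositol transfer protein gene, was at 8.45 and 8.49 in CD103 single-positive cells, against 9.21 and 9.39 in double-negative cells (probe set 10392347, chromosome 11, log2 difference -0.83, limma adjusted p = 0.0265). None of the 3 had overlapping groups. Pitpnc1 also had a fresh difference of -0.56 that just missed the threshold (adjusted p = 0.056).

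**Figure D2:**
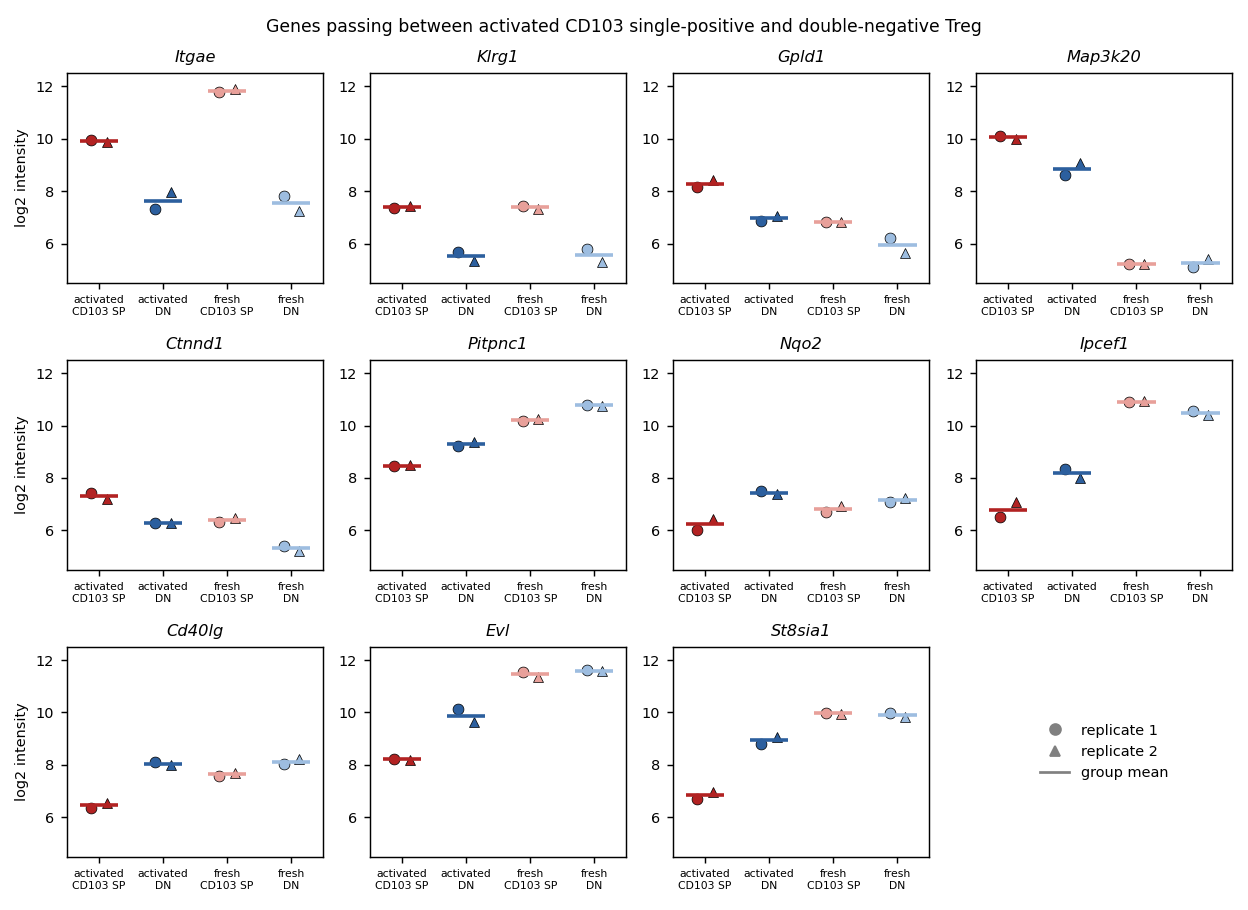
Log2 intensity (vertical axis) of the 11 genes that passed, by array, in activated CD103 single-positive (CD103 SP), activated double-negative (DN), fresh CD103 single-positive and fresh double-negative cells. Circles are replicate 1, triangles replicate 2 and bars group means of 2 arrays. The activated groups do not overlap for any of the 11 genes, while in fresh cells St8sia1, Evl and Map3k20 have nearly equal means.

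The activated double-positive arrays, which belong to cells sorted for both CD103 and ICOS, did not show the same side for every gene. St8sia1 was lower still in them, at 5.84 and 5.88, and Klrg1 was higher, at 10.91 and 10.81. Itgae was at 11.18 and 11.08 and Gpld1 at 9.42 and 9.37, also above the CD103 single-positive arrays. Map3k20 was at 8.40 and 8.56 in double-positive cells, below both CD103 single-positive and both double-negative arrays. Cd40lg was at 8.10 and 7.47 and Ipcef1 at 8.39 and 8.13 in double-positive cells, near the double-negative levels. Activated CD103-negative, ICOS-positive replicate 1, the array of that group kept in the fit, had Klrg1 at 9.9996 and Gpld1 at 8.77. Both lay above the CD103 single-positive arrays, as Itgae did, so high levels were not limited to cells sorted as CD103-positive. On the same array Ctnnd1 at 6.25 and Map3k20 at 6.63 lay below both double-negative arrays. These values are side by side and were not tested against the double-negative arrays.

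With these 15 arrays fewer genes passed after the assay than before it. In fresh cells 74 genes passed (0.371%), with 58 higher in CD103 single-positive cells (0.291%) and 16 lower (0.0802%), and the 2 comparisons share no array. The fresh count was 14 without CD103 single-positive replicate 1, 25 without its replicate 2 and 21 without double-negative replicate 2, and the 96 activated calls without double-negative replicate 2 outnumber it. Itgae, Klrg1 and Ctnnd1 passed in both states, which is 3 of the 11 activated calls and 3 of the 74 fresh calls. Of the 74 fresh calls, 54 had the same sign in activated cells, and for 42 of them the activated groups also did not overlap in that direction, against 16.5% (above) and 9.72% (below) of all genes tested. Their median absolute log2 difference was 0.20 in activated cells and 1.11 in fresh cells, and 72 of 74 were smaller in activated cells. Since the 74 were selected by their fresh values, these counts describe them and are no test. Across all genes the activated and fresh differences correlated weakly (Pearson r = 0.149 over 19938 genes, which are not independent).

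**Figure D3:**
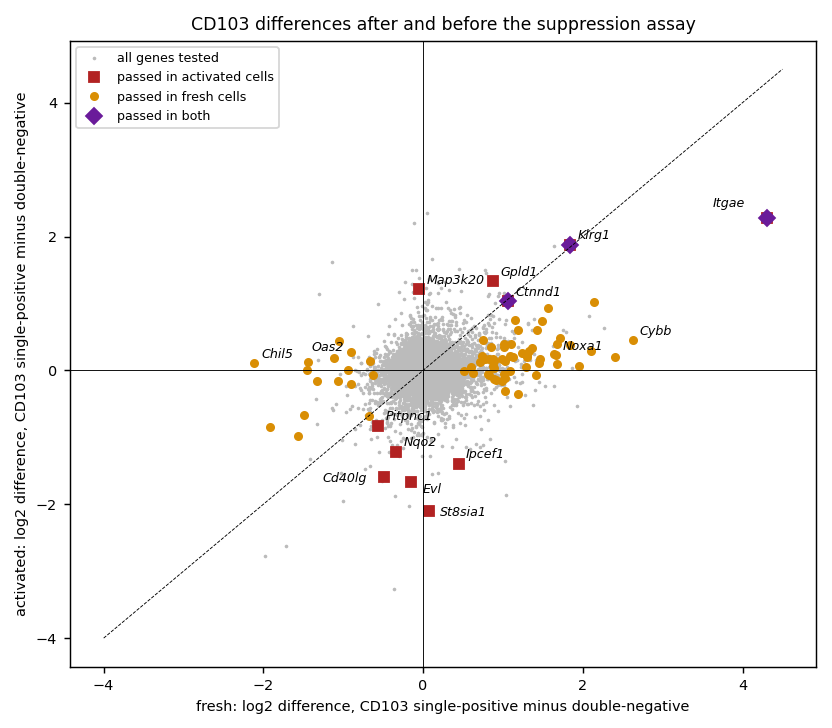
Log2 difference, CD103 single-positive minus double-negative, in activated cells (vertical axis) against the same difference in fresh cells (horizontal axis), with 1 point per gene. Squares passed in activated cells, circles in fresh cells and diamonds in both, and the dashed line marks equal differences. Klrg1 and Ctnnd1 lie on the line, Itgae below it, and St8sia1 at -2.10 in activated and 0.07 in fresh cells.

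The change of the CD103 difference with activation was tested itself, and 5 genes passed (0.0251%). St8sia1 was the one of them that also passed between the activated groups. For Noxa1, an activator of NADPH oxidases, the groups lay close after the assay, at 5.98 and 5.76 in activated CD103 single-positive cells, against 5.62 and 5.66 in activated double-negative cells. These levels are below the array medians, where background can hide a difference. Fresh cells gave 7.70 and 7.93 in CD103 single-positive and 6.20 and 6.11 in double-negative cells, and the change was -1.43 (adjusted p = 0.0388). Cybb, the catalytic NADPH oxidase subunit, had an activated difference of 0.45 and a fresh difference of 2.62, and its change of -2.17 did not pass (adjusted p = 0.12).

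Chil5, a chitinase-like gene, and Oas2, an interferon-induced antiviral gene, were lower in fresh CD103 single-positive cells and close between the groups after activation. Activated levels lay below the array medians for Chil5 and near them for Oas2, so a remaining difference could be hidden by background. Chil5 was at 4.93 and 4.84 in activated CD103 single-positive cells, against 4.76 and 4.81 in activated double-negative cells, and the change of its difference was 2.22 (adjusted p = 0.0388). Oas2 was at 6.41 and 6.64 in activated CD103 single-positive cells, against 6.27 and 6.54 in activated double-negative cells, and its change was 1.57 (adjusted p = 0.0388). The other gene, B930095G15Rik, has a predicted name and no known role, with a change of -1.85 (adjusted p = 0.0388). Its activated log2 difference of -1.14 did not pass. In limma it did pass with the replicate block (adjusted p = 0.0327), with dim genes left out (0.033) and with a variance trend (0.0449). St8sia1 and Chil5 passed without fresh double-negative replicate 1, as did Cpd, a carboxypeptidase gene. In limma 0 genes passed without activated CD103 single-positive replicate 1 (559 at an unadjusted p below 0.05), fresh CD103 single-positive replicate 1 (944), fresh CD103 single-positive replicate 2 (646) or fresh double-negative replicate 2 (506). Of the 5 genes, St8sia1 was the one that also passed without activated CD103 single-positive replicate 2 and without activated double-negative replicate 1. Without activated double-negative replicate 2 there were 34 calls. With each array centred on its median limma gave 0 calls, and 784 genes had an unadjusted p below 0.05, against 721 without centring.

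Most listed genes did not pass after the assay. The 26 lists held 469 genes, of which 428 were measured. Among these Itgae and Klrg1 passed as higher in activated CD103 single-positive than in activated double-negative cells, and Cd40lg as lower. Leaving out CD103 single-positive replicate 1 left 1 listed call, and leaving out double-negative replicate 1 or 2 gave 6 or 20. Over all genes tested the median log2 difference was 0.03. In 3295 genes (16.5%) both CD103 single-positive arrays lay above both double-negative arrays, and in 1938 genes (9.72%) below them. The difference was positive in 11900 of the 19938 genes. These values are the background of the list counts. With 1 array left out, 16 of the 26 list medians took the other sign in at least 1 case, and 10 kept theirs.

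Naive and central T cell genes had the most negative median of the lists. Of 18 measured, 0 passed and 15 had a negative difference, with a median log2 difference of -0.61. In 8 both CD103 single-positive arrays lay below both double-negative arrays, against 9.72% of all genes tested. Dapl1, which is expressed in naive T cells, was at 6.85 and 6.28 in CD103 single-positive cells, against 10.49 and 8.18 in double-negative cells (limma adjusted p = 0.264). Bach2, a repressor that restrains effector differentiation, was at 10.04 and 8.84 in CD103 single-positive cells, against 10.95 and 10.37 in double-negative cells (adjusted p = 0.911). Txk, a T cell kinase, had a log2 difference of -1.04 (adjusted p = 0.178), and Foxp1, a quiescence factor, one of -0.93 (adjusted p = 0.731). The list's median was -0.24 without double-negative replicate 1 and -1.03 without double-negative replicate 2. The log2 difference of Txk was -1.40 without CD103 single-positive replicate 2. Without double-negative replicate 2 the log2 difference was -3.93 for Dapl1 and -1.38 for Foxp1.

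Effector Treg genes leaned the other way. Klrg1 passed as higher in CD103 single-positive cells, and 26 of 27 members did not pass. A positive difference was seen in 21, and the median was 0.21, or 0.47 without double-negative replicate 2. In 8 both CD103 single-positive arrays lay above both double-negative arrays (16.5% of all genes tested) and in 2 below (9.72%). Without double-negative replicate 1 only 15 of 27 were positive. Il10, a suppressive cytokine, was at 9.47 and 9.65 in CD103 single-positive cells, against 6.97 and 9.26 in double-negative cells (limma log2 difference 1.45, SE 0.60, adjusted p = 0.9999). Its difference was 2.50 in replicate 1 and 0.39 in replicate 2, and 2.59 without double-negative replicate 2. Lag3 and Pdcd1, inhibitory receptors, had log2 differences of -0.88 and -0.45 with no overlap and did not pass.

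The Treg core list, which holds Itgae, had a median of 0.11 over 19 genes, which turned to -0.20 without double-negative replicate 2, and Itgae was the only member to pass. Tnfrsf4, which encodes the costimulatory receptor OX40, differed by 0.06, and Il2rb, the IL-2 receptor beta chain, by 0.17. Among 35 chemokine receptor, homing and adhesion genes Itgae alone passed, and the median was -0.002. Ccr3, an eotaxin receptor, was at 7.11 and 7.21 in CD103 single-positive cells, against 5.09 and 6.94 in double-negative cells (adjusted p = 0.9999). S1pr1, the receptor for exit from lymph nodes, was at 9.91 and 9.90 in activated CD103 single-positive cells, against 9.78 and 9.16 in activated double-negative cells, a log2 difference of 0.43 that did not pass. Its fresh difference was -1.06 and passed (adjusted p = 0.0342), and the change of 1.49 did not (adjusted p = 0.12). Itgb8, the integrin chain that activates TGF-beta, had differences of 0.40 in activated cells (adjusted p = 0.9999) and 1.01 in fresh cells (adjusted p = 0.0185).

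Costimulatory and coinhibitory receptors had 13 positive and 13 negative differences, a median of -0.01 and Klrg1 as the member that passed. Tnfrsf8, which encodes CD30, was at 11.93 and 11.77 in CD103 single-positive cells, against 10.05 and 11.34 in double-negative cells (adjusted p = 0.762). Its log2 difference was 1.80 without double-negative replicate 2. Cd160, a receptor for HVEM, had a log2 difference of -0.85 that did not pass. Suppressive mediators and cytolytic genes had 0 of 21 passing and a median of 0.05. Pde3b, a phosphodiesterase that degrades cyclic AMP, was the member with the widest gap, at 5.72 and 6.02 in CD103 single-positive cells, against 8.13 and 8.85 in double-negative cells (log2 difference -2.62, SE 0.44, limma adjusted p = 0.104). Lgals3 and Fasl, encoding galectin-3 and Fas ligand, had log2 differences of -0.97 and -0.87 and did not pass.

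For the TGF-beta pathway, whose cytokine induces CD103, 0 of 24 genes passed and the median was 0.04. Smad3, a signal transducer, was at 9.61 and 9.46 in CD103 single-positive cells, against 9.28 and 9.32 in double-negative cells (log2 difference 0.23, adjusted p = 0.9999). Smad2, its partner, and Ski, a corepressor of SMADs, had log2 differences of -0.16 and -0.15. The T cell receptor immediate early and feedback list had 0 of 30 passing and a median of -0.18. In 9 members both CD103 single-positive arrays lay below both double-negative arrays (9.72% of all genes tested) and in 3 above (16.5%). Dusp6, a phosphatase of ERK, was at 7.87 and 8.32 in CD103 single-positive cells, against 9.20 and 9.32 in double-negative cells (adjusted p = 0.746). Nr4a1, Egr3 and Spry1 had log2 differences of -0.78, -0.73 and -0.68, and none passed. The immediate early median was -0.07 without double-negative replicate 1 and -0.24 without replicate 2.

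Cytokine genes and receptors varied widely between arrays. The helper lineage list had 0 of 21 passing and a median of -0.18, which was -0.03 without CD103 single-positive replicate 1 and 0.12 without double-negative replicate 2. Its lowest member, named after its values were seen, was the type 1 cytokine Ifng, at 6.51 and 7.37 in CD103 single-positive cells, against 6.83 and 10.16 in double-negative cells (log2 difference -1.55, limma adjusted p = 0.9999). The Ifng difference was -3.22 without double-negative replicate 1. Its member with the highest difference, the type 2 cytokine Il5, was at 9.80 and 9.37 in CD103 single-positive cells, against 6.15 and 8.62 in double-negative cells (log2 difference 2.20, SE 0.73, limma adjusted p = 0.9999). Lif, a cytokine of the IL-6 family, had a log2 difference of 0.66 (adjusted p = 0.9999). Among 28 cytokine receptors and their inhibitors 0 passed, and the median was 0.13. Il18r1 was the nearest to passing, at 7.93 and 8.52 in CD103 single-positive cells, against 6.94 and 7.10 in double-negative cells (log2 difference 1.20, SE 0.17, limma adjusted p = 0.0502). Il18rap, its coreceptor, had a log2 difference of 0.38 and Il4ra, the IL-4 receptor chain, one of 0.45, and neither passed. Il1r2, the decoy receptor for IL-1, was at 10.79 and 10.96 in CD103 single-positive cells, against 8.47 and 10.27 in double-negative cells (adjusted p = 0.804). Without double-negative replicate 2 the log2 difference was 2.41 for Il1r2 and 1.28 for Il18r1.

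Among 14 follicular T cell genes 0 passed and the median was -0.05, with Tox2, a transcription factor of follicular helper cells, differing by 0.68. Among 11 chemokine ligands 0 passed, 9 were negative and the median was -0.22, which was -0.01 without CD103 single-positive replicate 2 and 0.04 without double-negative replicate 1. Ccl5 had a log2 difference of -0.22 and Cxcl10 one of 0.47, and for Ccl5 the groups were close, at 7.76 and 7.78 in CD103 single-positive cells, against 7.80 and 8.18 in double-negative cells.

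No member of the growth and metabolism lists passed. Of 35 cell cycle genes 0 passed, 12 were positive and 23 negative, and all differences lay between -0.18 and 0.20 on the log2 scale. Ccna2, cyclin A2, was at 11.51 and 11.52 in CD103 single-positive cells, against 11.83 and 11.56 in double-negative cells, and Ccnd2, cyclin D2, had a difference of 0.20. Glycolysis and hypoxia genes had 18 of 20 positive, 0 passing and a median of 0.20. In 7 of them both CD103 single-positive arrays lay above both double-negative arrays, against 16.5% of all genes tested. Hk2, hexokinase 2, was at 10.23 and 10.45 in CD103 single-positive cells, against 9.49 and 9.95 in double-negative cells (limma adjusted p = 0.476). Bnip3, a hypoxia-induced mitophagy gene, differed by 0.59, Slc2a1, a glucose transporter, by 0.22 and Pgk1, a glycolytic kinase, by 0.22, and none passed. The glycolysis median was 0.34 in replicate 1 and 0.02 in replicate 2.

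The remaining lists had 0 passing members each. Cholesterol synthesis genes had 15 of 20 positive and a median of 0.07, which was -0.004 without double-negative replicate 1 (10 of 20 positive) and 0.22 without double-negative replicate 2. Of heat shock and stress genes 13 of 16 were positive, with a median of 0.13, and of NADPH oxidase genes 5 of 7, with a median of 0.16, or 0.04 without double-negative replicate 2. Hmox1, the heme oxygenase induced by oxidative stress, was at 8.53 and 8.55 in CD103 single-positive cells, against 7.90 and 8.25 in double-negative cells, and did not pass. Interferon-stimulated genes had 10 positive and 11 negative members and a median of -0.01, which was 0.21 without CD103 single-positive replicate 1 and -0.25 without CD103 single-positive replicate 2. Bcl2 family survival and death genes had a median of -0.04 over 15 members, with Bcl2l11, which encodes the death protein BIM, at -0.84. Prostaglandin genes had a median of 0.03 over 17 members, of which 10 stayed below 7 on all 4 arrays.

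**Figure D4:**
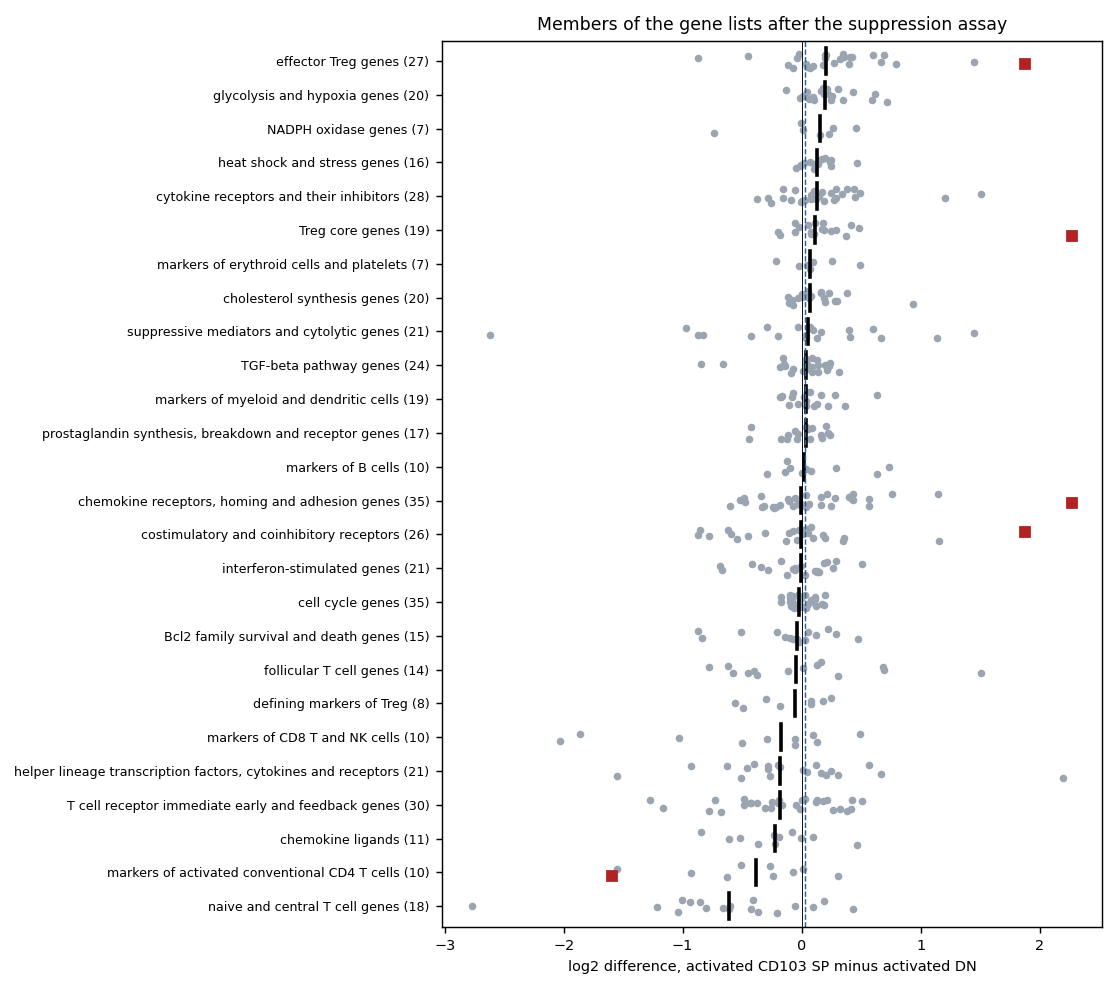
Log2 difference, activated CD103 single-positive minus activated double-negative (horizontal axis), of each measured member of the 26 gene lists (rows, with the number measured in brackets). Grey points did not pass, red squares passed, black bars are list medians and the dashed line is the median of all genes at 0.03. The naive and central list has the lowest median at -0.61 and the effector Treg list the highest at 0.21; Itgae and Klrg1 belong to 2 lists each and are drawn in both.

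Several cytokine genes had large differences that did not pass, and their double-negative arrays lay far apart. Il24, an IL-10 family cytokine, was at 10.93 and 9.93 in CD103 single-positive cells, against 6.99 and 9.16 in double-negative cells (log2 difference 2.35, SE 0.60, limma adjusted p = 0.508). The difference was 3.94 in replicate 1 and 0.77 in replicate 2. Mt2, a metallothionein, was at 12.35 and 12.33 in CD103 single-positive cells, against 9.26 and 12.17 in double-negative cells (adjusted p = 0.9999). Ttc39c had a log2 difference of 1.86 and Il1rn, the IL-1 receptor antagonist, one of 1.67, with the lower value on double-negative replicate 1 for both. Of the 46 genes more than 2-fold higher between the group means, 28 had double-negative replicate 1 more than 2-fold below its partner. Without that array the log2 difference was 1.27 for Il24, 0.97 for Il5, 0.30 for Il10 and 0.17 for Mt2. Without double-negative replicate 2 instead, the log2 difference was 3.44 for Il24, 2.86 for Ttc39c and 2.26 for Il1rn.

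Plcd1, Elovl4 and Hhex came next among the higher genes that missed the threshold. Plcd1, a phospholipase C, was at 10.99 and 10.28 in CD103 single-positive cells, against 9.17 and 9.05 in double-negative cells (log2 difference 1.52, SE 0.22, limma adjusted p = 0.0583). Elovl4, an elongase of very long chain fatty acids, had a log2 difference of 1.50 (adjusted p = 0.0716) and Hhex, a homeobox transcription factor, one of 1.50 (adjusted p = 0.387). The log2 difference was 1.87 for Plcd1 without CD103 single-positive replicate 2 and 1.90 for Elovl4 without double-negative replicate 2.

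On the lower side, Akr1c18, which encodes a hydroxysteroid dehydrogenase that inactivates progesterone, had the largest difference between group means among genes whose groups did not overlap. It was at 6.93 and 5.95 in CD103 single-positive cells, against 8.91 and 10.49 in double-negative cells (log2 difference -3.26, SE 0.96, limma adjusted p = 0.791). Ms4a4b, a T cell membrane protein gene, was at 6.74 and 7.54 in CD103 single-positive cells, against 9.40 and 8.62 in double-negative cells (log2 difference -1.87, adjusted p = 0.0932), and Ms4a4c of the same family differed by -1.32 (adjusted p = 0.487). Tmem71 had a log2 difference of -1.66 (adjusted p = 0.0799), Ajuba, a LIM domain protein gene, one of -1.54 (adjusted p = 0.337) and Chst2, a sulfotransferase that acts on glycans, one of -1.36 (adjusted p = 0.33). Ifitm1, an interferon-induced membrane protein gene, was at 6.30 and 6.87 in CD103 single-positive cells, against 7.06 and 10.03 in double-negative cells (adjusted p = 0.9999). Its second probe set gave a difference of -2.08, against -1.96 for the brighter one. Without double-negative replicate 1 the log2 difference was -2.20 for Ajuba and -3.44 for Ifitm1. The log2 difference was -2.26 for Ms4a4b without double-negative replicate 2 and -2.11 for Tmem71 without CD103 single-positive replicate 2.

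**Figure D5:**
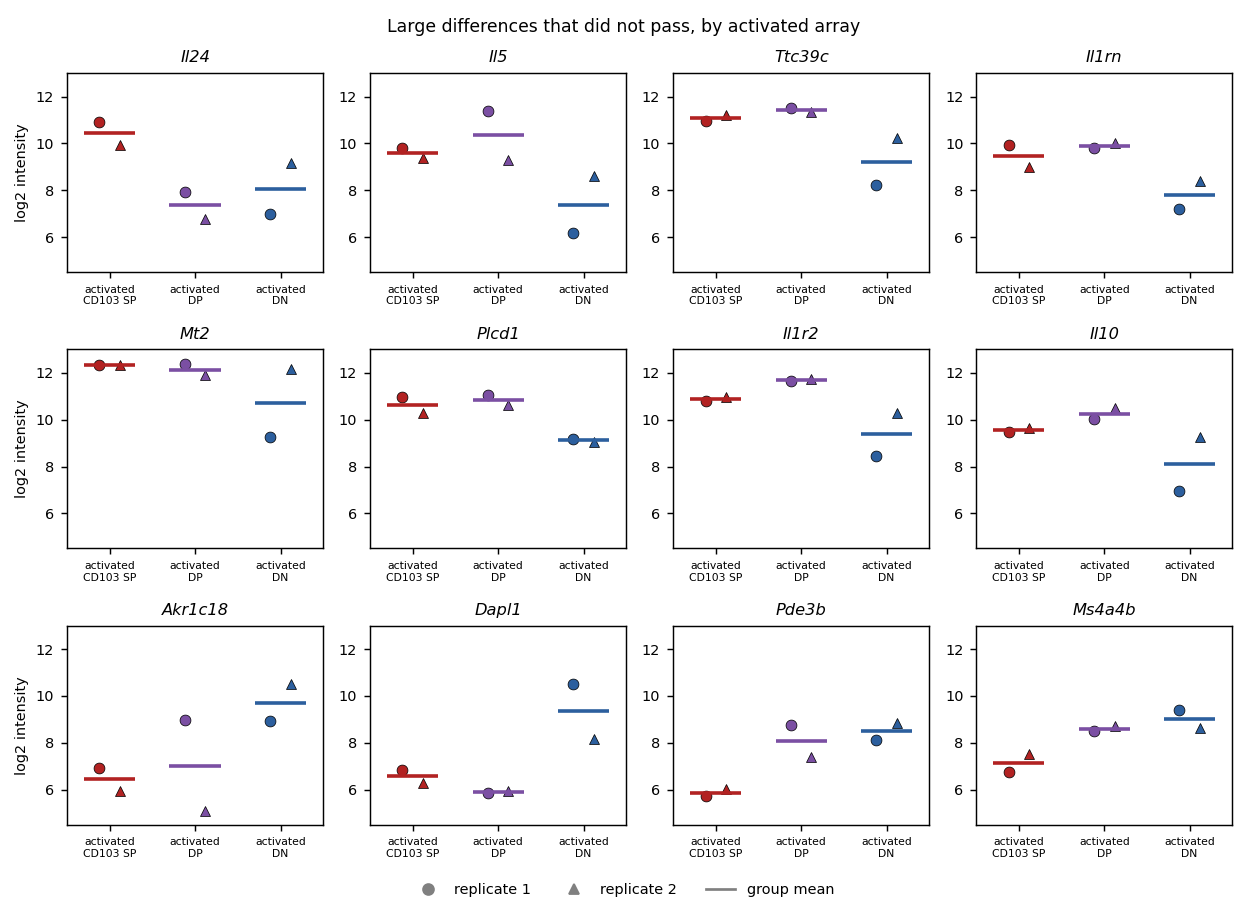
Log2 intensity (vertical axis) of 12 named genes with large differences that did not pass, by activated array, in CD103 single-positive (CD103 SP), double-positive (DP) and double-negative (DN) cells. Circles are replicate 1, triangles replicate 2 and bars group means of 2 arrays. For Il24, Il5, Mt2 and Il10 double-negative replicate 1 lies well below replicate 2, while for Plcd1 the 2 double-negative arrays are close.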

How the data were processed

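The 16 arrays measured total RNA of sorted mouse Treg. The deposited values are log2 intensities of 35556 probe sets, made by the authors with RMA and the affy package, per the submitters' processing notes. The labels state neither the versions and settings nor the animals behind a replicate. RMA corrects background and normalizes across arrays, so differences are relative. Gene symbols came from the platform annotation: 21789 probe sets had 1 symbol, 1621 several and 12146 none. The brightest of several probe sets stood for a gene (999 genes), which left 19938 genes with no filter on dim ones. Of the probe sets, 21698 matched RefSeq by gene identifier, and 0 symbols changed.

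Differences were fitted with limma 3.58.1 in R 4.3.3, with 8 group means over 15 arrays, 7 residual and 3.20 prior degrees of freedom, no covariate, and Benjamini-Hochberg adjustment over all genes. The script was tested on simulated data with independent noise on each array, which checks the code and not the p-values of these arrays. Arrays carry no counting depth, and their number, 2 per group, limits the precision. Named genes are those that passed with the same sign in both replicates and no overlap between groups, filled to 15 in each direction with the largest differences that did not overlap and whose higher mean was at least 7, then up to 4 members of each list and up to 10 in each direction for the change with activation. The rule skips predicted genes, antigen receptor segments, histones and small RNAs; B930095G15Rik, Cpd and Ifng were named after their values were seen. The comparison, its members and the 26 lists were chosen with earlier results of these data known. The 41 listed genes without a probe set of a single symbol were not analysed here. Alternatives covered the arrays fitted, a replicate block, normalization, a filter on dim genes, the variance trend, the choice of probe set and leaving out each array.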

Additional observations from a re-analysis of the deposited data

Results flagged for a closer look

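The difference between CD103 single-positive and double-negative cells was another one after activation than before it for 5 genes, by a limma test of that change itself. The change was -2.17 on the log2 scale for St8sia1, -1.85 for B930095G15Rik, -1.43 for Noxa1, 2.22 for Chil5 and 1.57 for Oas2. St8sia1 differed by -2.10 in activated and 0.07 in fresh cells, with the change in the same direction in both replicates. B930095G15Rik differed by -1.14 in activated cells, which did not pass. Noxa1 differed by 0.23 in activated and 1.66 in fresh cells, Chil5 by 0.10 in activated and -2.11 in fresh cells, and Oas2 by 0.12 in activated and -1.44 in fresh cells. The activated levels of Noxa1 and Chil5 lay below the array medians and those of Oas2 near them, where background can hide a difference. The adjusted p was 0.00989 for St8sia1 and 0.0388 for each of the others.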

How the results depend on the processing

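Calls in activated cells numbered 11, against 1 with all 16 arrays, 0 with the 7 activated arrays, 0 with the 4 arrays alone, 7 after quantile normalization again, 7 with each array centred on its median, 21 with dim genes left out, 24 with a variance trend and 11 with the mean of a gene's probe sets. Leaving out 1 array gave 2 to 96. Among these 13 alternatives, the replicate block included, St8sia1 passed in 10, Evl, Cd40lg, Klrg1 and Itgae in 9 each, Ipcef1, Nqo2, Pitpnc1 and Ctnnd1 in 6 each, and Map3k20 and Gpld1 in 5 each, and none of the 11 changed sign.

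Fresh calls numbered 74, against 17 with all 16 arrays, and 14 to 53 with 1 array left out. The change with activation gave 5 calls, against 0 with all 16 arrays, 0 with centred arrays, 8 with dim genes left out and 2 with a variance trend, and 0 to 34 with 1 array left out. Where the change gave 0, 631 genes (16 arrays) and 784 genes (centred) had an unadjusted p below 0.05. Listed genes that passed numbered 3, against 1 with all 16 arrays, 0 with the 7 activated arrays, 0 with the 4 arrays alone, 5 with dim genes left out and 5 with a variance trend, and 1 to 20 with 1 array left out. The causes were not tested.

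The replicate number as a replicate block gave 29 activated calls, with all 11 among them and also Plcd1 (adjusted p = 0.00954), Il18r1 (0.025), Tmem71 (0.0327), Ms4a4b (0.0399) and Elovl4 (0.0463), and 174 fresh calls, 42 calls for the change and 4 listed calls. The labels do not say that a number marks a shared animal or day. Same-numbered arrays deviated from their group means together in this comparison, with a correlation across genes of 0.45 in activated and 0.55 in fresh cells, which is a hint from the data and not the design.

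With 1 array left out, differences that had not passed changed sign for 3 named genes. That of Il2ra ranged from -0.033 (without double-negative replicate 1) to 0.184, that of Foxp3 from -0.224 (without double-negative replicate 2) through -0.029 (without CD103 single-positive replicate 1) to 0.386, and that of Oas2 from -0.010 (without double-negative replicate 1) to 0.259. Over the alternatives 1342 values of named genes kept their side of the threshold, 38 newly passed, 63 no longer passed and 4 turned. With 2 arrays per group, 1 array can decide a call, and background limits what low levels show.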
